A study of Mus musculus with 19 samples.

Results

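The genes described here are 38 interferon-stimulated effector genes, which are the genes that a cell switches on in answer to interferon and whose products act against viruses, foreign nucleic acids and infected cells. They were chosen by name, with earlier results of these data known, as a list of 38 beside the 24733 named genes of the RNA tables. Each was looked up as the nearest gene of every listed H3K27ac peak and as a row of every RNA table. Of 14035 listed peaks, 60 had a member as their nearest gene, and 37 of the 38 had an RNA row (Sp100 had none).

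The series mapped H3K27ac, the acetyl mark on histone H3 that active promoters and enhancers carry, by ChIP-seq in microglia sorted from the brains of C57BL/6 mice by CD11b and CD45. Wild-type (WT) mice carried the PRMT1 fl/fl alleles alone, and knockout (KO) mice carried PRMT1 fl/fl with Cx3cr1-CreERT, so that tamoxifen, which the paper's methods describe for both genotypes, removes the arginine methyltransferase PRMT1 only in cells that use the Cx3cr1 promoter. That promoter is also active in other mononuclear phagocytes. Per the methods, tamoxifen was given at 5 to 6 weeks of age, before the cuprizone diet. WT basal microglia came from mice on normal diet (labelled 11 weeks), and the other groups from mice fed 0.2% cuprizone, a copper chelator that strips myelin from the brain, for 5 weeks and then split by CD11c, a surface marker of activated microglia, into WT CD11c-low and WT CD11c-high, together with KO CD11c-low. Each group had 2 H3K27ac libraries, described as biological replicates, and the smallest two-sided p that an exact permutation test of 2 against 2 libraries can give is 0.333. KO basal H3K27ac was not analysed here, and no KO CD11c-high group was among the samples.

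Type I interferons bind a receptor that activates the kinases JAK1 and TYK2. The signal ends in a complex with IRF9 that binds the interferon-stimulated response element (ISRE), a DNA element with repeated GAAA letters in the promoters of the effector genes, while interferon gamma works mainly through a different element, the GAS. Microglia with a strong interferon signature are a recognised state in demyelinated, infected and ageing brain.

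Values are normalized tag counts per peak, scaled within each comparison by the authors, and the peak tables list only peaks that passed the authors' threshold. Dividing values by the step that a single read adds gave whole numbers of reads (100% of values within 0.05 reads), and these are the reads quoted behind a value. WT basal replicate 1 was the shallowest library, with 60.9% and 62.6% of the mean depth of its 2 comparisons, and the median member peak held 24 to 39.5 reads in WT basal libraries against 125 to 263 in the cuprizone libraries. Prmt1 itself had no listed peak, and its deposited RNA mean pools both groups of a comparison, so the KO label could not be checked on it. Among markers of other cells, 8 of 8 lymphocyte markers and 5 of 6 neuron markers were under a BaseMean of 10 in all 6 RNA tables, while oligodendrocyte, astrocyte and border macrophage markers were present. The 9 monocyte and border macrophage markers summed to 206 of every 1000000 units of BaseMean in the table of basal libraries and 149 in the table of WT cuprizone libraries, and 9 of 10 microglia markers to 5097 and 5060. The 7 endothelium markers summed to 129 and 289, higher after cuprizone like the members described here, and the part of endothelial RNA in the results was not tested. In bulk libraries such as these, a change in the number of cells of a type and a change in RNA or signal per cell cannot be told apart. Of the 10 microglia markers, 2 had a lower H3K27ac peak after cuprizone in CD11c-low (1.8% of all genes) and 4 in CD11c-high (5.14%), where 1, Olfml3, had a higher peak. Of 7 endothelium markers, 2 had a higher and 2 a lower peak in CD11c-low, and 3 and 3 in CD11c-high. Monocyte and border macrophage markers (9) gave 1 higher and 0 lower in CD11c-low, then 1 and 2 in CD11c-high. Oligodendrocyte markers (8) gave 1 and 1 in both gates, and lymphocyte markers (8) 1 and 0. Astrocyte markers (7) gave 0 and 0, then 2 and 1, and neuron markers (6) none. Of all genes, 10.5% and 12.7% had a higher peak. In the comparison of the gates, the microglia markers P2ry12 and Tmem119, the oligodendrocyte marker Mog and the astrocyte marker Slc1a3 had a lower peak in CD11c-high. The oligodendrocyte marker Mbp and the astrocyte marker Slc1a2 had a lower peak in KO CD11c-low than in WT CD11c-high, and no marker was listed between KO and WT CD11c-low.

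Promoters are shown first, with the ISRE letters that many of them carry, because most higher member peaks were centred within 1 kb of a start. An ISRE-like string was taken as GAAANNGAAA on either strand (TTTCNNTTTC when read on the other strand), where N is any base, with no correction for overlap with other motifs. It occurred in the window from 250 bases before to 50 after a start in 18 of the 28 members with a promoter entry (64.3%), against 1079 of 27025 genes (3.99%) of the whole promoter table. A GAS-like string, TTCNNNGAA, occurred in 5 of the 28 (17.9%) against 9.55% of all genes. The sequences are from RefSeq on GRCm38.p6, each 100 bases on the gene's own strand, with the ISRE-like strings in capitals and overlapping strings run together. Tor3a, Ifi27l2a, Rtp4, Oas2, Zbp1, Mx1, Parp14, Dhx58, Usp18 and Ifi204 had no entry. Isg15 (chr4:156200819-156200918, minus strand), Oas1a (chr5:120907526-120907625, minus strand), Ifi207 (chr1:173741810-173741909, minus strand), Slfn5 (chr11:82951927-82952026, plus strand) and Gbp2 (chr3:142620563-142620662, plus strand) had a listed higher H3K27ac peak over the string or within 1 kb of the start.
Isg15: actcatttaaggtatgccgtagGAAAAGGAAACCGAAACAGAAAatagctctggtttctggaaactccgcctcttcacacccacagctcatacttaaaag
Oas1a: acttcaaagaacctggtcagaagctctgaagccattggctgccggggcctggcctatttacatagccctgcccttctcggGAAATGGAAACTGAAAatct
Ifi207: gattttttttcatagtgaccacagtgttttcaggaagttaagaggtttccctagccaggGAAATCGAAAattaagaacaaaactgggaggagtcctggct
Slfn5: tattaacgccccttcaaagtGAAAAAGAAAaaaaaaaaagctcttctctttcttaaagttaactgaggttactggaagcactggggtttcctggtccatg
Gbp2: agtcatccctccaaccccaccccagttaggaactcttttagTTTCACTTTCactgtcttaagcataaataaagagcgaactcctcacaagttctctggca

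Isg15 holds 3 overlapping strings in a row and Oas1a 2, whereas Ifi207, Slfn5 and Gbp2 hold 1 each. Ifit3 (chr19:34583353-34583452, plus strand) and Ifit3b (chr19:34607749-34607848, plus strand) lie side by side in the Ifit cluster, and the 100 bases shown for them are identical at 100 of 100 positions.
Ifit3: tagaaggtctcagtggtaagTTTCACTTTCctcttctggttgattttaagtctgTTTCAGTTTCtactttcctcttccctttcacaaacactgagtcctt
Ifit3b: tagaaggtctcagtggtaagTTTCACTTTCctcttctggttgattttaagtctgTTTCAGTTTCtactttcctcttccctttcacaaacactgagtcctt

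Reads from such identical stretches cannot be assigned to either gene, so the H3K27ac values near the Ifit3 start are uncertain, as is the absence of a listed peak at Ifit3b. The strings were not particular to members with a listed peak. They occurred in 11 of 17 members with a listed higher peak (64.7%) and in 7 of 11 members with no listed peak (63.6%), as in Ifit1 (chr19:34640765-34640864, plus strand) and Bst2 (chr8:71537523-71537622, minus strand), both without a listed peak.
Ifit1: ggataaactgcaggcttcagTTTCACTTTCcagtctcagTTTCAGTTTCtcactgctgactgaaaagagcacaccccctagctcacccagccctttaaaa
Bst2: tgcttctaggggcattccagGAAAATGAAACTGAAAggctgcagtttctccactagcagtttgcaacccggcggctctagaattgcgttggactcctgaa

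The comparisons of cuprizone with normal diet ask how the enhancer and promoter landscape of WT microglia changes during demyelination. H3K27ac was higher after cuprizone at 21 of the 38 members in WT CD11c-low microglia (26 peaks) and at 23 in WT CD11c-high microglia (32 peaks). The corresponding shares of all genes were 10.5% and 12.7%. Since the list was chosen with earlier results of these data known, these counts describe it and do not test it. Among genes with an RNA BaseMean of at least 50, a higher peak was listed for 18 of 29 members in CD11c-low (18.1% of all such genes) and 16 of 25 in CD11c-high (21.9%). That BaseMean pools the WT basal and cuprizone libraries, so members high only after cuprizone can pass the filter. In the table of WT basal and KO basal, 21 members reached 50. These shares are therefore not matched for basal RNA level. A lower peak was listed for no member in CD11c-low (1.8% of all genes) and for 1 member, Zbp1, in CD11c-high (5.14%). The 2 comparisons share the WT basal libraries and are therefore not independent of each other.

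Of the members, 20 had a higher peak in both gates, of which 18 had overlapping ones and Eif2ak2 and Trim30a peaks at different stretches. Dhx58 had one in CD11c-low only, and Ifih1, Gbp2 and Rsad2 in CD11c-high only. The other 14 had no listed peak in any comparison: Ifit1, Ifit3b, Oas2, Oas3, Ifi203, Herc6, Gbp3, Mx1, Bst2, Cmpk2, Slfn8, Parp14, Xaf1 and Ifi44. A peak that is not listed has no value in the tables, so its absence says only that no peak with that nearest gene passed the authors' threshold. Over the 26 member peaks of CD11c-low the median difference was 1.88 on the log2(normalized tags + 1) scale (range 1.02 to 3.52), beside 1.66 over all 4334 higher peaks, and over the 32 of CD11c-high it was 2.18 (1.01 to 4.65), beside 1.92 over all 5571. For peaks centred within 1 kb of a start the medians were 2.05 for members and 1.4 for all in CD11c-low, and 2.18 and 1.52 in CD11c-high. By limma over all listed peaks of a comparison, every one of the 26 and 33 member peaks passed an adjusted p of 0.05 and a log2 difference of 1, with adjusted p from 1.47e-08 to 0.0017 in CD11c-low and from 5.08e-08 to 0.00701 in CD11c-high. So did 99.2% and 99.3% of all listed peaks, because the tables hold only peaks already chosen for their difference. The fit is used here for sizes and errors and not as a test. Both carry the same selection, so differences near 1 may be too large and SEs too small. Adjusted p given further on with a library left out shows only whether a listed call holds.

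**Figure D1:**
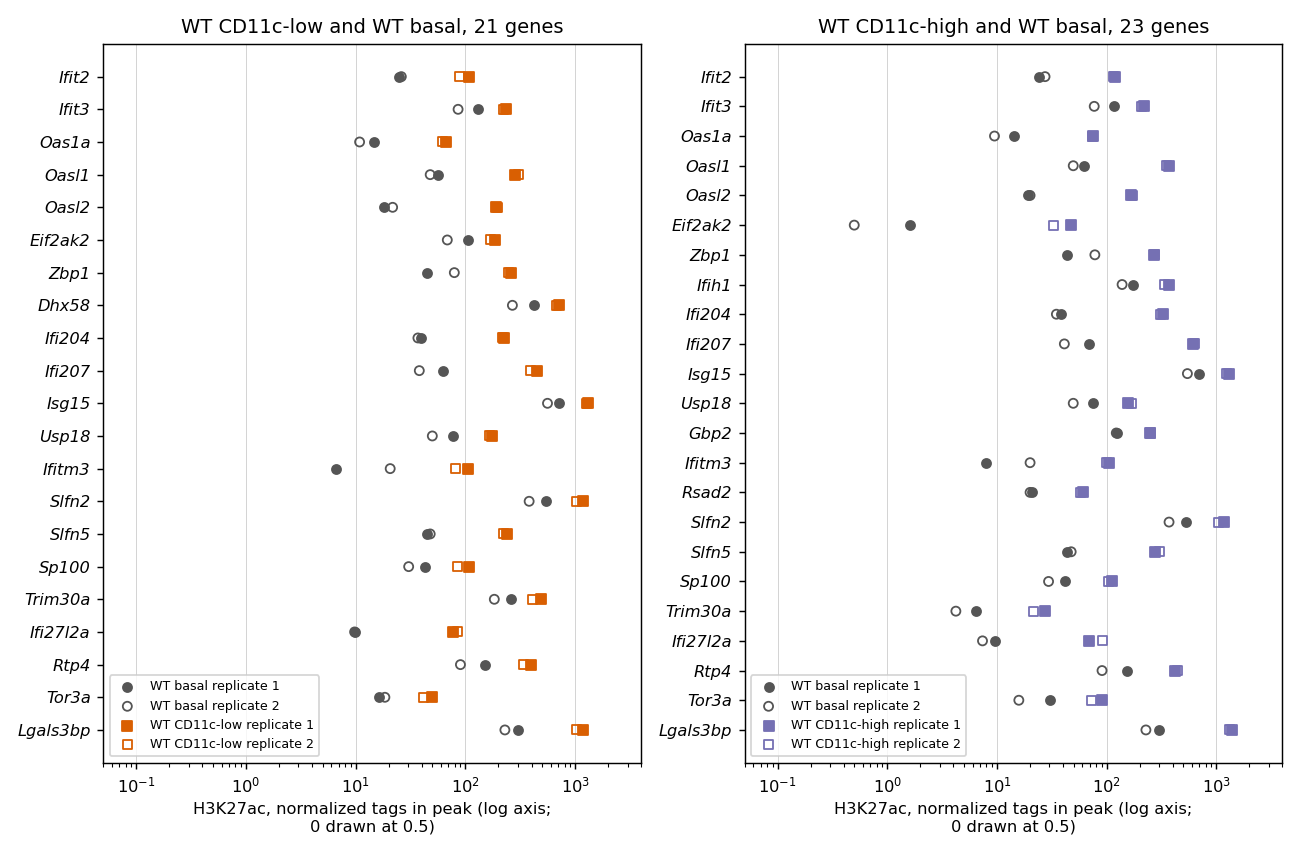
Normalized H3K27ac tags (log axis) in the listed higher peak nearest to the start of each member, by library, with WT basal in grey and cuprizone libraries in colour, filled for replicate 1 and open for replicate 2, and a value of 0 drawn at 0.5. In all 21 genes (CD11c-low panel) and all 23 (CD11c-high panel) the cuprizone libraries lie to the right of both WT basal libraries. The same holds for all 4334 and all 5571 listed higher peaks, which were chosen for their difference. Isg15, Slfn2 and Lgals3bp are the only genes above 1000 tags.

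Among the RNA-binding and RNA-triggered proteins, 7 of 11 members had a higher peak in each gate. Oasl2, one of the 2′-5′-oligoadenylate synthetase-like proteins, held 18.1 and 21.7 tags in WT basal and 189 and 197 in CD11c-low at its peak 685 bases from the start (3.22 ± 0.27 log2, SE). In CD11c-high the overlapping peak held 167 and 171 against 19.2 and 20.0 (3.04 ± 0.27). Replicates of each group lay within a few tags of each other, and the groups stood about an order of magnitude apart. Its neighbour Oasl1, which in mouse restrains translation of Irf7, held 55.9 and 47.7 in WT basal against 284 and 302 in CD11c-low (2.48 ± 0.22), and 62.3 and 49.6 against 370 and 348 in CD11c-high (2.67 ± 0.22). A smaller Oasl1 peak 6620 bases upstream was listed in CD11c-high only, at 52.4 and 50.8 against 17.6 and 26.4 (1.22 ± 0.34). Without WT basal replicate 1 that Oasl1 difference was 0.94, under the threshold, and leaving out either CD11c-high library gave limma adjusted p of 0.0754 and 0.0648. Oas1a, which makes the 2-5A that activates RNase L, was lower in level, with 14.8 and 10.8 in WT basal against 65.9 and 62.0 in CD11c-low (2.25 ± 0.36), and 14.4 and 9.49 against 75.5 and 74.6 in CD11c-high (2.58 ± 0.36). The 3 synthetase genes with a listed peak were thus higher in both gates, and Oas2 and Oas3 had no value.

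The Ifit genes lie next to each other on chromosome 19. At the Ifit2 start WT basal held 24.6 and 26.0 tags and CD11c-low 108 and 87.9 (1.90 ± 0.30), and the CD11c-high comparison gave 24.0 and 27.4 against 120 and 116 (2.16 ± 0.27). The Ifit3 start rose less, from 130 and 85.7 to 232 and 224 in CD11c-low (1.10 ± 0.23) and from 117 and 77.0 to 218 and 207 in CD11c-high (1.15 ± 0.24). WT basal replicates differed more at Ifit3 than at Ifit2, and without WT basal replicate 2 the Ifit3 differences were 0.81 and 0.86, under the threshold of 1. A further peak assigned to Ifit3 lies 13236 bases before its start, inside Ifit2, and held 65.7 and 65.1 in WT basal against 243 and 235 in CD11c-low (1.86 ± 0.22). The same stretch held 65.5 and 64.3 against 293 and 308 in CD11c-high (2.19 ± 0.21), with closely matching replicates in every group. An Ifit3 peak 1.98 kb after the start was listed in CD11c-high only, at 24.9 and 16.9 against 3.20 and 6.33 (1.96 ± 0.51).

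Smaller peaks in an intron of Ifit2 had few reads in WT basal. At 2.37 kb from the start CD11c-low held 59.6 and 49.4 tags against 3.29 and 8.67 in WT basal (3.10 ± 0.45). In CD11c-high the corresponding peak held 31.1 and 50.8 against 1.60 and 5.27 (3.34 ± 0.53). The Ifit2 peak at 5.73 kb, listed in CD11c-high only, had 21.3 and 23.8 tags against 0 and 1.05, which is 55 reads against 1, a ratio of 35.7 with a 95% counting interval of 6.15 to 1440. The interval covers counting error only, and at this depth the Ifit2 ratio is poorly fixed.

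Zbp1, a sensor of Z-form nucleic acid that triggers cell death, held 44.4 and 79.1 tags in WT basal and 261 and 245 in CD11c-low at its start (2.07 ± 0.26), and 43.1 and 78.0 against 269 and 275 in CD11c-high (2.21 ± 0.27). WT basal replicates differed at Zbp1, yet both lay far below the cuprizone libraries. The only lower member peak of the whole set was also assigned to Zbp1, 9071 bases before its start (chr2:173227381-173228605), with 41.5 and 23.2 in WT basal against 15.1 and 6.92 in CD11c-high (-1.51 ± 0.47). That peak lies in an exon of Pmepa1, a target of TGF-beta signalling, and rests on 48 reads in WT basal and 26 in CD11c-high. Without CD11c-high replicate 2 the Zbp1 value was -0.99 and without WT basal replicate 1 it was -1.10. Its size thus falls near the threshold when either library is left out.

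Eif2ak2 encodes PKR, the kinase that halts translation on double-stranded RNA. Its start held 105 and 68.3 tags in WT basal and 186 and 171 in CD11c-low (1.06 ± 0.24), or 0.76 without WT basal replicate 2. In CD11c-high the listed Eif2ak2 peak was a different one, 8874 bases upstream in an intron of Sult6b1, with 47.1 and 33.1 against 1.60 and 0. That is 96 reads against 1, a ratio of 62.3 with a counting interval of 10.9 to 2490. The direct comparison of the gates, described further on, listed no peak of Eif2ak2.

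Of the 5 nucleic acid sensors and HIN-200 proteins, 3 had a higher peak in each gate. Ifi207, a HIN-200 protein of the murine p200 family, showed the largest difference of any member peak within 1 kb of a start in CD11c-high, from 68.7 and 41.1 to 614 and 627 tags (3.52 ± 0.24). In CD11c-low it went from 62.4 and 38.0 to 453 and 388 (3.08 ± 0.25). The neighbouring Ifi204, a DNA sensor, held 39.4 and 36.9 in WT basal against 224 and 218 in CD11c-low (2.50 ± 0.24) and 38.3 and 34.8 against 326 and 310 in CD11c-high (3.09 ± 0.22). These paralogs share sequence, so reads may be split between them. The RNA sensors of the RIG-I family rose by less and each in 1 list only. Dhx58, the LGP2 regulator of that family, held 424 and 268 against 716 and 677 in CD11c-low (1.04 ± 0.24, and 0.71 without WT basal replicate 2). Ifih1, the long-RNA sensor MDA5, held 173 and 138 against 372 and 334 in CD11c-high (1.19 ± 0.21).

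In the ISG15 conjugation system, Isg15 encodes the ubiquitin-like modifier, Usp18 removes it and Herc6 is the murine ligase. Isg15 had the widest member peak (7.27 kb in CD11c-low). The tag count over that whole width was high already on normal diet, with 706 and 559 tags in WT basal against 1321 and 1264 in CD11c-low (1.04 ± 0.24). In CD11c-high the Isg15 values were 687 and 544 against 1314 and 1239 (1.06 ± 0.23). The difference sat at the threshold, and leaving out either cuprizone library gave limma adjusted p of 0.13 and 0.105 in CD11c-low and 0.109 and 0.0863 in CD11c-high, while leaving out WT basal replicate 2 gave 0.87 and 0.89 log2. At the Usp18 start WT basal held 77.2 and 49.9 against 174 and 167 in CD11c-low (1.44 ± 0.25), and 75.1 and 49.6 against 157 and 168 in CD11c-high (1.40 ± 0.25). An intronic Usp18 peak 5.17 kb from the start went from 16.4 and 23.9 to 72.2 and 77.0 in CD11c-low (1.86 ± 0.33) and from 11.2 and 14.8 to 64.9 and 66.1 in CD11c-high (2.26 ± 0.35). Herc6 had no listed peak.

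Among the interferon-induced GTPases, which attack the membranes around intracellular pathogens or bind viral capsids, only Gbp2 of 3 had a listed peak, and only in CD11c-high. It held 125 and 122 tags in WT basal and 250 and 249 in CD11c-high (1.01 ± 0.20), the smallest difference of the 32 higher peaks, and with a pseudocount of 5 it was 0.99, under the threshold, as it also was by a small margin without WT basal replicate 2. Gbp3 and Mx1 had none.

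Ifitm3, which blocks the fusion of viral and endosomal membranes, held 6.57 and 20.6 tags in WT basal and 106 and 81.2 in CD11c-low (2.87 ± 0.42). In CD11c-high it went from 7.99 and 20.0 to 105 and 100 (2.91 ± 0.39). The groups did not overlap in either comparison, as at every listed higher peak. Rsad2, viperin, which makes a chain-terminating nucleotide, lies beside Cmpk2 and was listed in CD11c-high only, with 20.8 and 20.0 against 61.3 and 57.7 near its start (1.50 ± 0.32). Another Rsad2 peak 3735 bases upstream, between Rsad2 and Cmpk2, held 52.7 and 28.5 against 85.3 and 94.6 (1.19 ± 0.31). Without WT basal replicate 2 this Rsad2 difference was 0.76, and without CD11c-high replicate 2 its limma adjusted p was 0.0622. The central 200 bases of this intergenic peak (chr12:26460087-26460286, GRCm38.p6, plus strand) are shown because 2 ISRE-like strings, in capitals, fall at its middle.
Rsad2 upstream peak: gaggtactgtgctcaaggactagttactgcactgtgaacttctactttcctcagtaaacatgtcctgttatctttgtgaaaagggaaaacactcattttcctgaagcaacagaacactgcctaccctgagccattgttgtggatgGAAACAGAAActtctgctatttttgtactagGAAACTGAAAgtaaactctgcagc

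The Schlafen genes, of which SLFN family members act on tRNA and on cell growth, split by level. Slfn2, required for immune cell quiescence in mouse, had a broad peak with 540 and 381 tags in WT basal against 1167 and 1026 in CD11c-low (1.27 ± 0.24), and 524 and 370 against 1167 and 1044 in CD11c-high (1.32 ± 0.23). Slfn5 was lower in level and rose more, from 44.4 and 47.7 to 237 and 224 in CD11c-low (2.30 ± 0.23) and from 43.1 and 47.5 to 276 and 303 in CD11c-high (2.65 ± 0.22). Slfn8 had no listed peak.

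Sp100, a component of nuclear PML bodies, had a peak at its start with 42.7 and 30.4 tags in WT basal against 107 and 84.6 in CD11c-low (1.37 ± 0.29), and 41.5 and 29.5 against 111 and 105 in CD11c-high (1.59 ± 0.28). An intronic Sp100 peak about 37 kb into the gene went from 18.1 and 14.1 to 53.4 and 55.3 in CD11c-low (1.70 ± 0.35) and from 19.2 and 17.9 to 64.9 and 66.1 in CD11c-high (1.77 ± 0.32). Trim30a, a murine ubiquitin ligase that limits inflammatory signalling, held 258 and 183 at its start against 483 and 404 in CD11c-low (1.02 ± 0.22). In CD11c-high a different Trim30a peak, 2.54 kb from the start, held 6.39 and 4.22 against 27.6 and 21.5 (2.03 ± 0.47). The start peak of Trim30a fell under the threshold without CD11c-low replicate 1 (0.89) or without WT basal replicate 2 (0.78).

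Of the other 5 interferon-induced genes, 4 had a higher peak in each gate. Lgals3bp, a secreted glycoprotein that binds galectins, had the largest mean tag count per peak after Isg15 among members in WT CD11c-low (1097, beside 1096 at Slfn2). In WT CD11c-high it had the largest of all. Counts are over whole peaks and depend on their width, here 5.72 and 6.28 kb. Lgals3bp held 304 and 229 tags in WT basal against 1170 and 1023 in CD11c-low (2.05 ± 0.23), and 299 and 228 against 1398 and 1312 in CD11c-high (2.37 ± 0.22). Ifi27l2a, a small mitochondrial and membrane protein, went from 9.86 and 9.76 to 77.7 and 85.4 in CD11c-low (2.93 ± 0.35) and from 9.59 and 7.38 to 69.3 and 91.5 in CD11c-high (3.10 ± 0.37). Both genes were thus higher in every cuprizone library, as were all listed higher peaks. Lgals3bp started from a high and Ifi27l2a from a low basal level.

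Rtp4, a chaperone that also restrains interferon responses in mouse, held 151 and 90.0 tags in WT basal against 393 and 341 in CD11c-low near its start (1.64 ± 0.24), and 152 and 90.7 against 422 and 446 in CD11c-high (1.88 ± 0.24). An intergenic Rtp4 peak 17698 bases upstream (chr16:23591971-23592471 in the CD11c-low table) had 17.3 and 21.8 tags against 0 and 2.17 in CD11c-low. In reads this was 48 against 2, a ratio of 14.9 with a counting interval of 3.9 to 126. In CD11c-high the Rtp4 upstream peak had 32.9 and 42.3 against 0 and 3.16, or 92 reads against 3, a ratio of 19.9 (6.6 to 98.3). Tor3a, a torsin ATPase of the endoplasmic reticulum, was listed through a distal peak alone, 50.3 kb after its start in CD11c-low and 49.9 kb in CD11c-high, in an intron of Abl2. That Tor3a peak held 16.4 and 18.4 against 49.4 and 41.0 in CD11c-low (1.32 ± 0.36, limma adjusted p = 0.0995 without CD11c-low replicate 1), and 30.4 and 15.8 against 91.5 and 73.1 in CD11c-high (1.85 ± 0.35). For a peak this far away the nearest gene is a label and not a measured target.

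**Figure D2:**
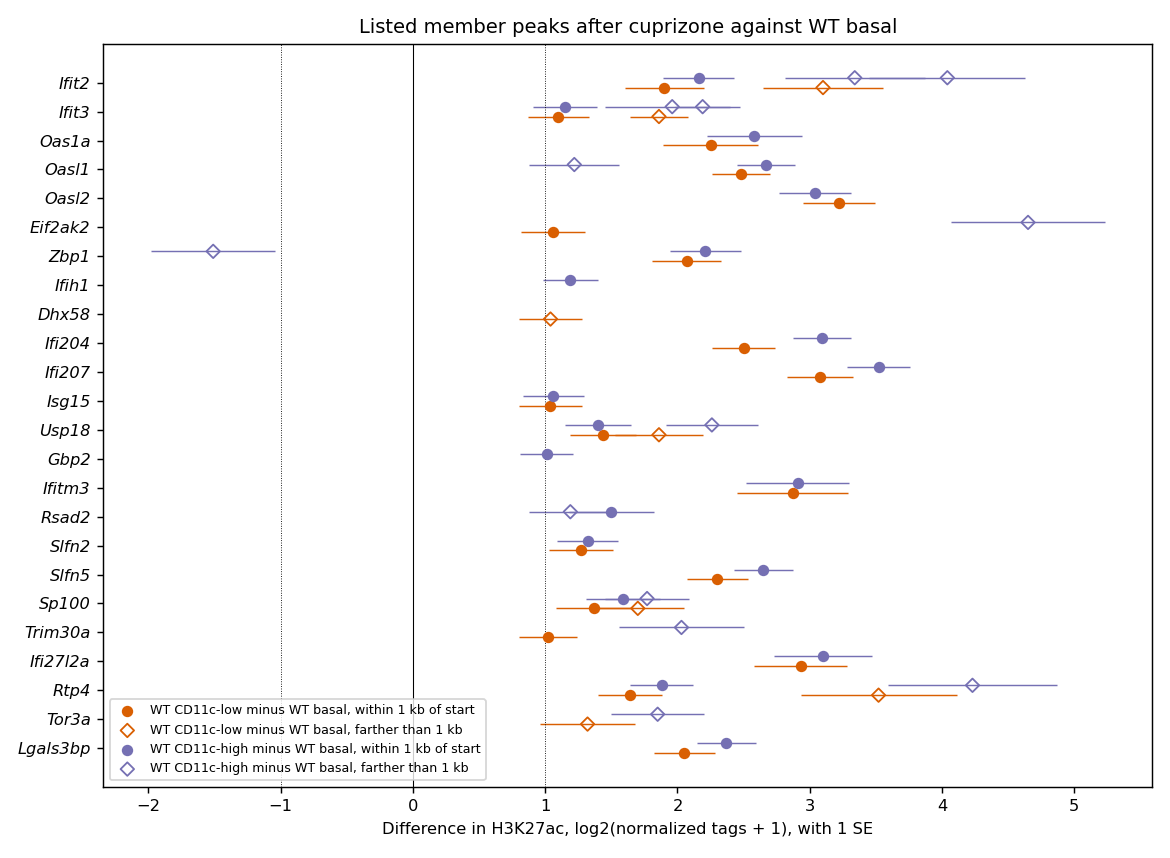
Difference in H3K27ac on the log2(normalized tags + 1) scale, with 1 SE from limma, for every listed member peak of the comparisons of WT CD11c-low (orange) and WT CD11c-high (purple) with WT basal, filled within 1 kb of a start and open farther away. All differences are positive except the Zbp1 peak at -1.51, and the dotted lines mark a difference of 1 in each direction.

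Member peaks lay closer to gene starts than listed peaks in general. In CD11c-low, 19 of 26 higher member peaks were centred within 1 kb of a start (73.1%), against 10.2% of all 4334 higher peaks, and 11 carried the promoter label (42.3% against 5.19%). In CD11c-high the shares were 20 of 32 (62.5%) against 10.3% of 5571, and 10 of 32 (31.2%) against 5.4%. Only 4 member peaks in each gate lay beyond 10 kb (15.4% and 12.5%), compared with 62.8% and 63.9% of all higher peaks. Median widths were 1668 bases for members and 1618.5 for all in CD11c-low, and the other way round in CD11c-high, with 1398.5 for members and 1610.0 for all. The share first found as a peak region in the cuprizone group alone was 23.1% of member peaks and 28.2% of all in CD11c-low, and 31.2% and 34.8% in CD11c-high. Regions found in both groups made up 73.1% and 62.5% of member peaks, and 57.9% and 54.4% of all. An ISRE-like string lay in the central 500 bases of 15 of 26 member peaks in CD11c-low (57.7%) and 16 of 32 in CD11c-high (50%), against 9.02% and 8.98% of all higher peaks. These shares are descriptions, since the peaks of a gene family in neighbouring positions are not independent, and a matching string is not evidence of binding.

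**Figure D3:**
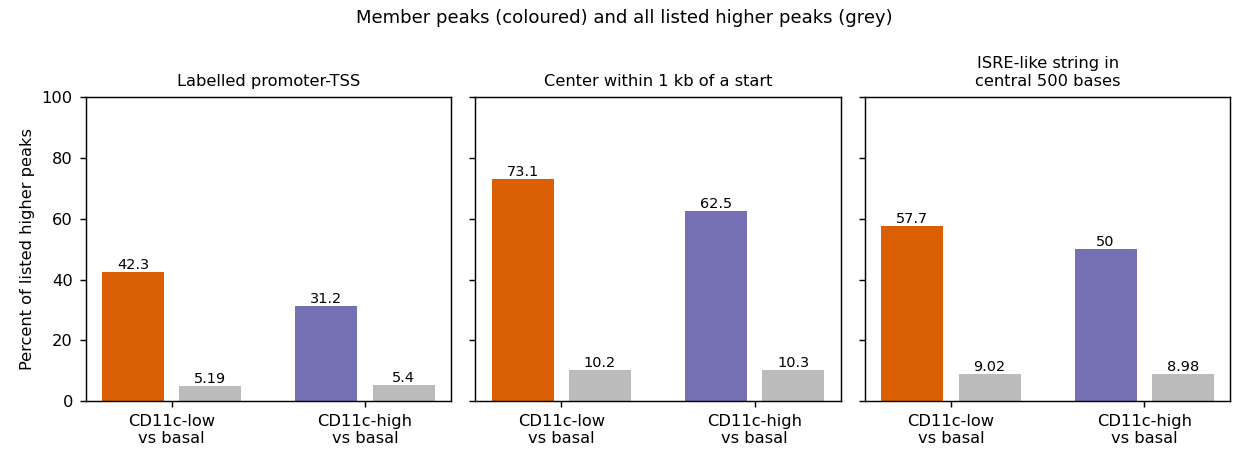
Percent of listed higher peaks with the promoter label, with the center within 1 kb of a start, and with an ISRE-like string in the central 500 bases, for member peaks (orange for CD11c-low, purple for CD11c-high) and all listed higher peaks (grey). Each member bar stands above its grey bar, for example 73.1% against 10.2% within 1 kb in CD11c-low.

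**Figure D4:**
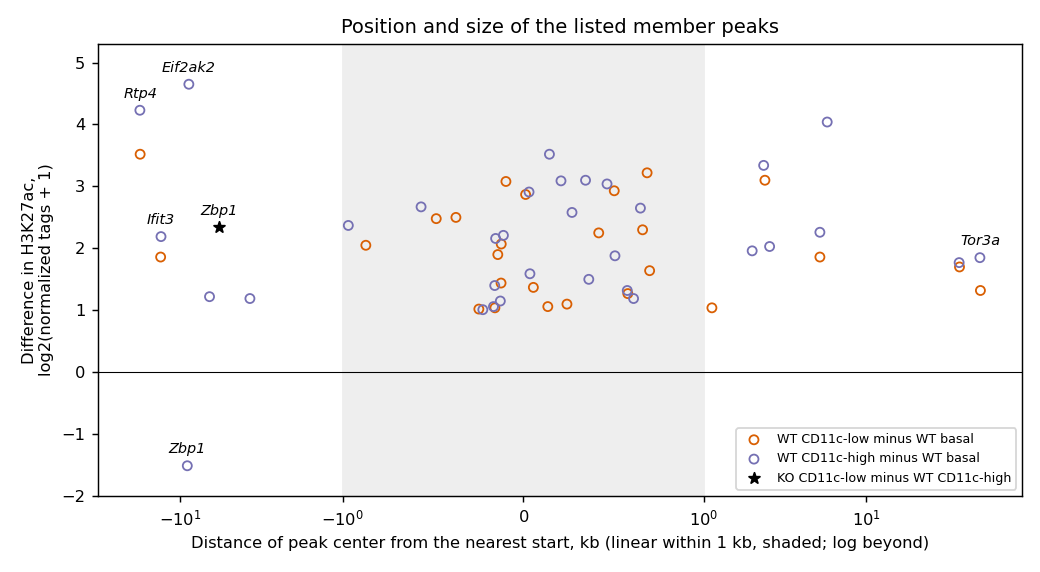
Difference in H3K27ac on the log2(normalized tags + 1) scale (vertical) against distance of the peak center from the nearest start in kb (horizontal, linear within the shaded 1 kb and log beyond) for all 60 listed member peaks. Most points lie in the shaded band, and the points above 4 are the upstream Eif2ak2 and Rtp4 peaks and the Ifit2 peak at 5.73 kb, all with 3 reads or fewer in WT basal.

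The comparison of WT CD11c-high with WT CD11c-low asks whether the gates differ among cuprizone microglia. No member was among the genes of its 241 higher or 208 lower peaks, which covered 0.825% and 0.704% of all genes. The comparison of KO with WT CD11c-low microglia, which asks what loss of PRMT1 changes, likewise listed no member among 222 higher peaks (0.737% of genes) or 49 lower peaks (0.178%). With so few genes listed, 0 of 38 lies near the background and says little about the members. Peaks outside the lists have no values in the tables, so neither a difference nor an interval can be given for Isg15, Ifit2 or any other member in these comparisons.

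KO CD11c-low against WT CD11c-high differs in genotype and gate together, which cannot be told apart here. It listed 1 member peak among 526 higher peaks (1.66% of genes) and none among 383 lower peaks (1.34%). The peak was assigned to Zbp1 (chr2:173224355-173225025) and held 7.47 and 5.54 tags in WT CD11c-high against 56.0 and 23.8 in KO CD11c-low (2.34 ± 0.51, limma adjusted p = 0.00191, beside 98.7% of all listed peaks past the same threshold). It lies 5768 bases before the Zbp1 start in the 3′ untranslated region of Pmepa1, a different stretch from the Zbp1 promoter peak, and was found as a region in KO CD11c-low alone. The KO replicates differed by more than a factor of 2, with 52 and 25 reads, and the Zbp1 difference was 1.74 without KO CD11c-low replicate 1 and 2.94 without replicate 2.

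The upstream side of the pathway was followed through 42 genes in 4 lists: interferon ligands, receptors and JAK-STAT genes, interferon regulatory factors, and sensors with their adaptors. A higher peak was listed for 11 of the 42 in CD11c-low (10.5% of all genes) and 12 in CD11c-high (12.7%). A lower one was listed for 0 in CD11c-low (1.8%) and 3 in CD11c-high (5.14%), the latter a share near that of all genes. Irf1, the regulator that interferon gamma induces, had a lower peak in CD11c-high than in CD11c-low, at 87.1 and 86.8 tags against 193 and 181, about 16 kb after its start. In KO CD11c-low the corresponding Irf1 stretch held 263 and 261 against 101 and 99.7 in WT CD11c-high. Socs3, a feedback inhibitor of JAK signalling, followed the same order 14 kb from its start, with 200 and 197 in CD11c-high against 428 and 422 in CD11c-low, and 426 and 461 in KO CD11c-low against 222 and 212 in CD11c-high. Both genes were thus lower in WT CD11c-high than in either CD11c-low group, in comparisons that share the CD11c-high libraries. Irf8, a factor that defines microglia, had 5.38 and 4.76 tags in KO CD11c-low against 26.7 and 37.8 in WT CD11c-high at a peak 79.2 kb away. Ikbke, a kinase that activates interferon regulatory factors, held 250 and 233 against 586 and 495 at 1.81 kb from its start.

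Of the 8 ligand genes only Ifng, named after its values were seen, had a listed peak, with the largest at 593 and 492 tags in CD11c-low against 55.9 and 61.8 in WT basal. It lies 27.9 kb after the Ifng start. RNA of all 8 ligands was under a BaseMean of 10 in every table.

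RNA could be described only by the authors' BaseMean, a mean of normalized counts over all libraries of a table, which carries no error and pools the groups compared. The tables were normalized separately, so levels set across them are approximate and ratios were centred on the median gene with a BaseMean of at least 50 in both tables. Of the 37 members, 21 reached a BaseMean of 50 in the table of WT basal and KO basal, where both genotypes are pooled, and 34 in the table of WT CD11c-low and WT CD11c-high. The share of all genes reaching 50 in these 2 tables was not computed, so the counts describe the members alone. On the log2(BaseMean + 1) scale, 36 of 37 members stood above the median gene in the WT cuprizone table relative to the basal table, with a member median of 2.66 against 0.03 over 11609 genes. By 2-fold or more, 29 of the 37 were higher (12.0% of all genes) and none lower. The WT cuprizone table rests on 2 libraries and the basal table on 5, so there is no replicate check.

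Rsad2 had the largest ratio (16.8-fold), with a BaseMean of 31.8 in the basal table and 447 in the WT cuprizone table. Oasl1 went from 8.46 to 118 (15.4-fold), Zbp1 from 15.9 to 180 (13.2-fold) and Oasl2 from 57.5 to 585 (12.3-fold). These are the same viperin, synthetase-like and nucleic acid sensing genes whose H3K27ac peaks are described above. Smaller ratios were found for Trim30a, from 567 to 842 (1.83-fold), and for Parp14, an ADP-ribosyltransferase, from 652 to 792 (1.49-fold), whereas Lgals3bp went from 600 to 1638 (3.35-fold). Slfn8 stayed near the median gene, at 559 and 470 (1.04-fold), as did Ifi203 at 32.3 and 28.6 (1.09-fold). Gbp3 alone was below it, at 97.6 and 51.3 (0.653-fold).

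Per kilobase of transcript, Lgals3bp had the highest member level in both tables, at a BaseMean of 274 per kb basal and 748 after cuprizone. Ifitm3 came next after cuprizone with 359 per kb, from 65.3, followed by Ifi27l2a with 306, from 32.8. Ifi203 with 5.89 and Ifi44 with 12.9 per kb were the lowest. The order thus changed with diet, since Trim30a (149) and Slfn8 (140) had followed Lgals3bp in the basal table.

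Among members without a listed peak, 9 of 14 were higher by 2-fold or more, beside 20 of 23 with one. The median ratio of the former was 1.82 on the log2 scale (-0.61 to 3.85), beside 2.80 for the latter (0.77 to 4.07). Gbp3, Slfn8 and Ifi203, the members with the lowest ratios, were all without a listed peak. Oas3 stood at 7.06 and 93.4 (14.4-fold), Ifi44 at 4.12 and 36.6 (9.05-fold), Oas2 at 50.2 and 332 (8.02-fold) and Ifit1 at 16.3 and 109 (7.82-fold) in BaseMean, all with no listed H3K27ac peak. Mx1, the GTPase that blocks influenza-type viruses, went from 86.0 to 321 (4.55-fold). Large RNA ratios thus occurred among members both with and without a listed peak.

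**Figure D5:**
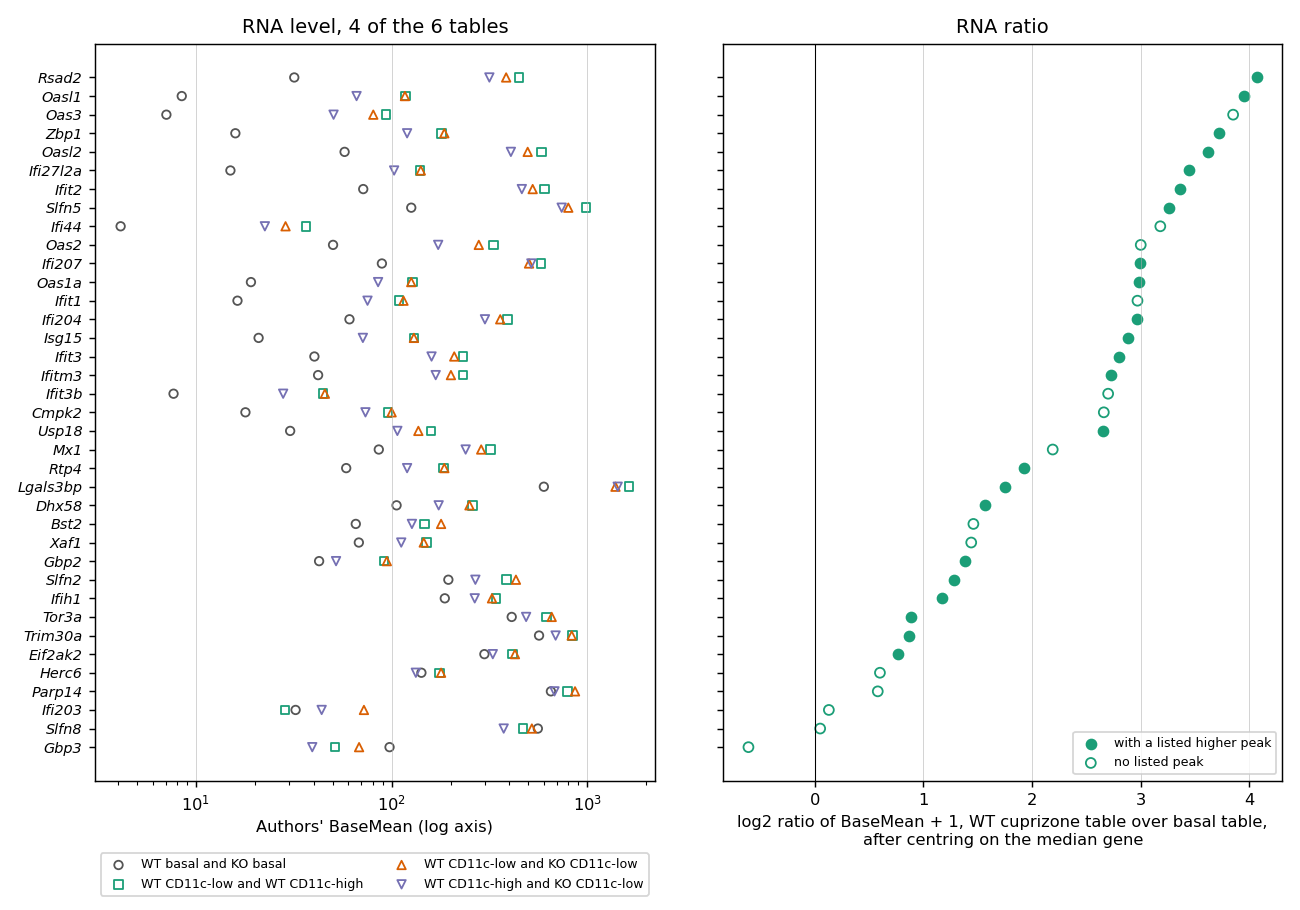
Left, the authors' BaseMean (log axis) of 37 members in the tables of basal, WT cuprizone, CD11c-low WT and KO, and WT CD11c-high with KO CD11c-low libraries. Right, log2 ratio of BaseMean + 1 between the WT cuprizone and the basal table after centring on the median gene, filled for members with a listed higher peak, running from -0.61 (Gbp3) to 4.07 (Rsad2).

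The tables that contain KO CD11c-low libraries differ from the table of WT gates by which library replaces which. Where KO CD11c-low stood in place of WT CD11c-low, the centred ratio was below 0 for 35 of 37 members, against 55.2% of all genes, with a member median of -0.26 on the log2 scale. Where KO CD11c-low stood in place of WT CD11c-high, it was again below 0 for 35 of 37, against 48.1% of all genes, with a median of -0.41. The exceptions were Ifi203 and Ifi207 in the former and Ifi203 and Gbp3 in the latter, and no member differed by 2-fold in either. Oas2 had the lowest ratio of the former, with a BaseMean of 332 in the table of WT gates and 173 in that of WT CD11c-high with KO CD11c-low (-0.76 log2). Ifi44 had the lowest of the latter, with 36.6 in the table of WT gates and 28.7 in that of WT CD11c-low with KO CD11c-low (-0.74). Ifi203, a HIN-200 gene, went the other way in both, at a BaseMean of 28.6 in the table of WT gates, 43.9 with WT CD11c-high and 72.2 with WT CD11c-low beside KO CD11c-low. The 3 tables share libraries and each rests on 2, and a pooled mean cannot give a level for KO microglia alone, so these values stand side by side with no test. Border macrophage markers summed to 149 of every 1000000 units of BaseMean in the table of WT gates, 177 with WT CD11c-low and 91.9 with WT CD11c-high beside KO CD11c-low, and their part in these shifts was not tested.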

How the data were processed

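H3K27ac ChIP-seq was taken from 8 of 10 H3K27ac libraries (4 groups of 2). KO basal and the 9 input libraries were not analysed here. According to the methods and the submitters' processing notes, the authors trimmed reads, mapped them with Bowtie2, checked them with FastQC 0.11.9, removed duplicates with SAMtools 0.1.19, called peaks against input and merged them between the groups compared with HOMER, and tested each pair of groups with DESeq2. The deposited signal is a normalized tag count per peak and library, scaled within a comparison, in 10 sheets that list only peaks past a false discovery rate of 0.05 and an absolute log2 change of 1. The notes name hg19 and mm10, and the peaks were placed on mm10, since 99.5% of 13980 had their stated distance from a GRCm38.p6 start within 100 bases. In 6 RNA tables the authors' BaseMean, a mean of normalized counts over the libraries of a comparison, and the transcript length were used. The workbook of these tables is named for ChIP, and they were taken as RNA because each row is a gene with a transcript length. Columns of the authors' fold changes, p-values and adjusted p-values, which hold their own comparisons, were not used, nor were 19 per-library RNA columns that could not be matched to a sample of the series.

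Sizes and errors came from limma 3.58.1 (R 4.3.3) on log2(normalized tags + 1) with an intensity trend over all listed peaks of a comparison, Benjamini-Hochberg adjusted, called at an adjusted p under 0.05 and an absolute log2 difference of 1. Since values were whole multiples of 1 read (100% within 0.05 reads), edgeR 4.0.16 and DESeq2 1.42.0 were run on the recovered reads. Other alternatives were a pseudocount of 5, a mean of at least 50 tags, peaks within 10 kb of a start, a log2 difference of 1.5, the replicate number as a block and leaving out each library. The main limma, edgeR and DESeq2 fits were tested on simulated data for the 2 comparisons of cuprizone with normal diet. Most simulated peaks were unchanged, unlike the listed peaks. The other settings and comparisons were not simulated. Members and lists were chosen with earlier results of these data known. Every member is accounted for, and values per library are given for every listed member peak. Other pathway genes and markers are given as counts, naming those listed in the last 3 comparisons. Depth is given as reads behind the values, and counting intervals are exact binomial at 95% and cover counting error only.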

Additional observations from a re-analysis of the deposited data

How the results depend on the processing

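Of 582 values of the 60 member peaks under the alternatives, 560 kept their call, 22 in 12 peaks lost it and 0 reversed. Leaving out WT basal replicate 2 accounted for 9 of the lost calls. Leaving out each library gave 21 to 26 higher member peaks in CD11c-low and 28 to 31 in CD11c-high, and 0 to 1 lower in CD11c-high, where the count was 0 without CD11c-high replicate 2 or without WT basal replicate 1. The median difference ranged from 1.87 to 1.97 and from 2.14 to 2.21 over the same alternatives, and for the Zbp1 peak of KO CD11c-low against WT CD11c-high from 1.74 to 2.94. With a mean of at least 50 tags required, the lower member peak of CD11c-high (0 peaks, 0 members) and the Zbp1 peak of KO CD11c-low (0 members) were lost, because their means lie under that level. A log2 difference of 1.5 left 15 members in CD11c-low and 18 in CD11c-high. On recovered reads, edgeR and DESeq2 each called 26 and 32 member peaks higher, with 4879 of 4886 and 7508 of 7520 of all listed peaks called by edgeR in the same comparisons. For the other alternatives the share over all listed peaks was not computed. Listed peaks were chosen for their difference, so the counts of kept calls do not set members apart from other listed peaks. At a BaseMean of at least 10, 33 members passed in the basal table, and at 100, 11 passed there and 19 in the table of WT basal and WT CD11c-low. Shares of all genes at these levels were not computed. With the replicate number as a block, 26 and 32 member peaks were higher, 1 was lower in CD11c-high and 1 was higher when KO CD11c-low was set against WT CD11c-high, with no call changed. The labels do not say that the numbers pair samples, and deviations of same-numbered libraries correlated between -0.08 and 0.14. The comparisons of CD11c-high with CD11c-low and of KO with WT CD11c-low listed no member peak, so no alternative gave a value there. Peaks with 3 reads or fewer in WT basal are limited by depth. Promoters counted over the 250 bases before the start alone held the ISRE-like string in 53.6% of members.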
